A study of Mus musculus with 16 samples.

Results

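The myelin genes Mbp, Mag, Mog, Mobp, Cldn11, Ermn, Aspa, Mal and Ugt8a, all products of mature oligodendrocytes, were followed in brain tumours and normal brain of the mouse. They were taken as a given list of 9 genes out of 18524 that have a named probe on the bead array used, and every probe of each gene was examined, 18 of 45281. Each of 8 tumours, 5 dorsal brain controls and 3 ventral brain controls was measured on 1 array, and the study took its controls from regions that correspond to those of the tumours. The tumours arose in mice that had lost tumour suppressors through a Cre recombinase whose activity can be induced. They were collected once neurological signs had appeared. The title of the study calls them high-grade glioma. The controls came from control mice. The sources used here give neither the deleted genes, nor the alleles of the control mice, nor the region of each tumour, nor the age and sex of the animals. The tumours are numbered 2, 3, 5, 6, 7, 8, 9 and 10 as in the labels, which describe each as independent tissue and the controls as biological replicates. Nothing further says that each came from its own animal, so the p-values measure the spread between these samples.

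Myelin is the multilayered membrane that oligodendrocytes wrap around axons in the central nervous system. Its compact part is held together by basic proteins on the cytoplasmic side of the membrane, its outer and inner surfaces carry adhesion proteins, and tight junction strands run through it radially. Its lipids are rich in galactosylceramide, and the genes for its proteins and lipid enzymes are switched on as a progenitor matures through a newly formed oligodendrocyte into a myelinating cell.

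In normal brain 7 of the 9 genes were measured on every array, and the labelled tissue therefore carried the RNA of its myelin. Of the 18 probes, 15 were detected on at least 3 arrays at a detection p under 0.05 and were kept, of 23131 kept on the whole array. The single probe of Ermn, which encodes an actin-binding protein of myelin-forming cells, and that of Aspa, the enzyme that splits N-acetylaspartate, were detected on 0 of 16 arrays, the 8 controls included. Another probe of Mal was likewise detected on 0 of 16. No level is given for Ermn and Aspa, and a probe silent in normal brain says nothing about the tumours.

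In the tumours Mbp, Mag, Mog, Mobp and Mal fell, whereas Cldn11 and Ugt8a did not pass the test in either direction. The sequences just upstream of 5 of these genes are shown as examples of both outcomes. They are the 250 bases before the start site on the strand of the gene, from RefSeq on build GRCm38.p6. Capitals mark a SOX core ACAAAG and a MYRF core CTGGNAC on either strand, so that CTTTGT and GTNCCAG are the same motifs read on the other strand. Mobp, Mag and Mog fell, and Cldn11 and Ugt8a did not pass. Mal also fell, and its window, described below but not printed, holds neither motif. No window of Mbp was among those read.
Mobp: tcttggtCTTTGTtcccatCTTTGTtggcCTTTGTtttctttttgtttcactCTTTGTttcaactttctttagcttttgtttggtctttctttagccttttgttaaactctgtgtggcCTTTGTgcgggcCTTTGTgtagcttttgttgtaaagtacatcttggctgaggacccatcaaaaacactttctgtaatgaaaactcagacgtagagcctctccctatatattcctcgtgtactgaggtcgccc
Mag: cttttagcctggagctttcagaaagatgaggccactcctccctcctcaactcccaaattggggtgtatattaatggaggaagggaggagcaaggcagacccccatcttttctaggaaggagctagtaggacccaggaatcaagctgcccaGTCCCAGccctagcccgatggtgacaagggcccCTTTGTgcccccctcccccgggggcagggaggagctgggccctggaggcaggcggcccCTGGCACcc
Mog: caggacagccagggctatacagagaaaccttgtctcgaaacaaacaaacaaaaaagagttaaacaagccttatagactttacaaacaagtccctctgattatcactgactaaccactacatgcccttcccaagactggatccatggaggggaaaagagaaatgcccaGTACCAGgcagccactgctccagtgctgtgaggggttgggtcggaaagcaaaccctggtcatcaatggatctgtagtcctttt
Cldn11: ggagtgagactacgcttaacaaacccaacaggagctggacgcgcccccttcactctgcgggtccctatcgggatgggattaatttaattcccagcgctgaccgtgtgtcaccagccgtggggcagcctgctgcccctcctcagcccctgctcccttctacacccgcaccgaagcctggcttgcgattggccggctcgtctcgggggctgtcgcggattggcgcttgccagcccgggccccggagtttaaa
Ugt8a: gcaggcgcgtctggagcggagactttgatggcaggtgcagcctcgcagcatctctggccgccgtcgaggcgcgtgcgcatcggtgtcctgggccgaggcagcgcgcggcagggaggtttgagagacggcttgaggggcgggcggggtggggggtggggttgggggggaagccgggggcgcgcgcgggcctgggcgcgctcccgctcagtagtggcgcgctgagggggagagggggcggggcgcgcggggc

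The Mobp window is chr9:120149492-120149741 on the plus strand and holds 6 copies of ACAAAG, all read as CTTTGT on the printed strand and none overlapping another motif. It was the single window with 6 or more copies among 32851 windows of the same length, a number of copies taken from Mobp itself, whereas 16.5% of windows held at least 1 copy. The Mag window, chr7:30914923-30915172 on the minus strand, holds 1 ACAAAG and 2 CTGGNAC. The Mog window, chr17:37023399-37023648 on the minus strand, holds 1 CTGGNAC, a motif present in 16.1% of all windows. Neither the Cldn11 window, chr3:31149670-31149919 on the plus strand, nor the Ugt8a window, chr3:125938653-125938902 on the minus strand, holds either motif, nor ACAATG or CAGCTG, which occur in 10.7% and 13.0% of windows. The window of Mal, which fell, chr2:127656696-127656945 on the minus strand, holds none of the 4 motifs either, and neither does the window of another Mag start, chr7:30914322-30914571. These matches describe letters in a window and locate no bound factor.

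**Figure D1:**
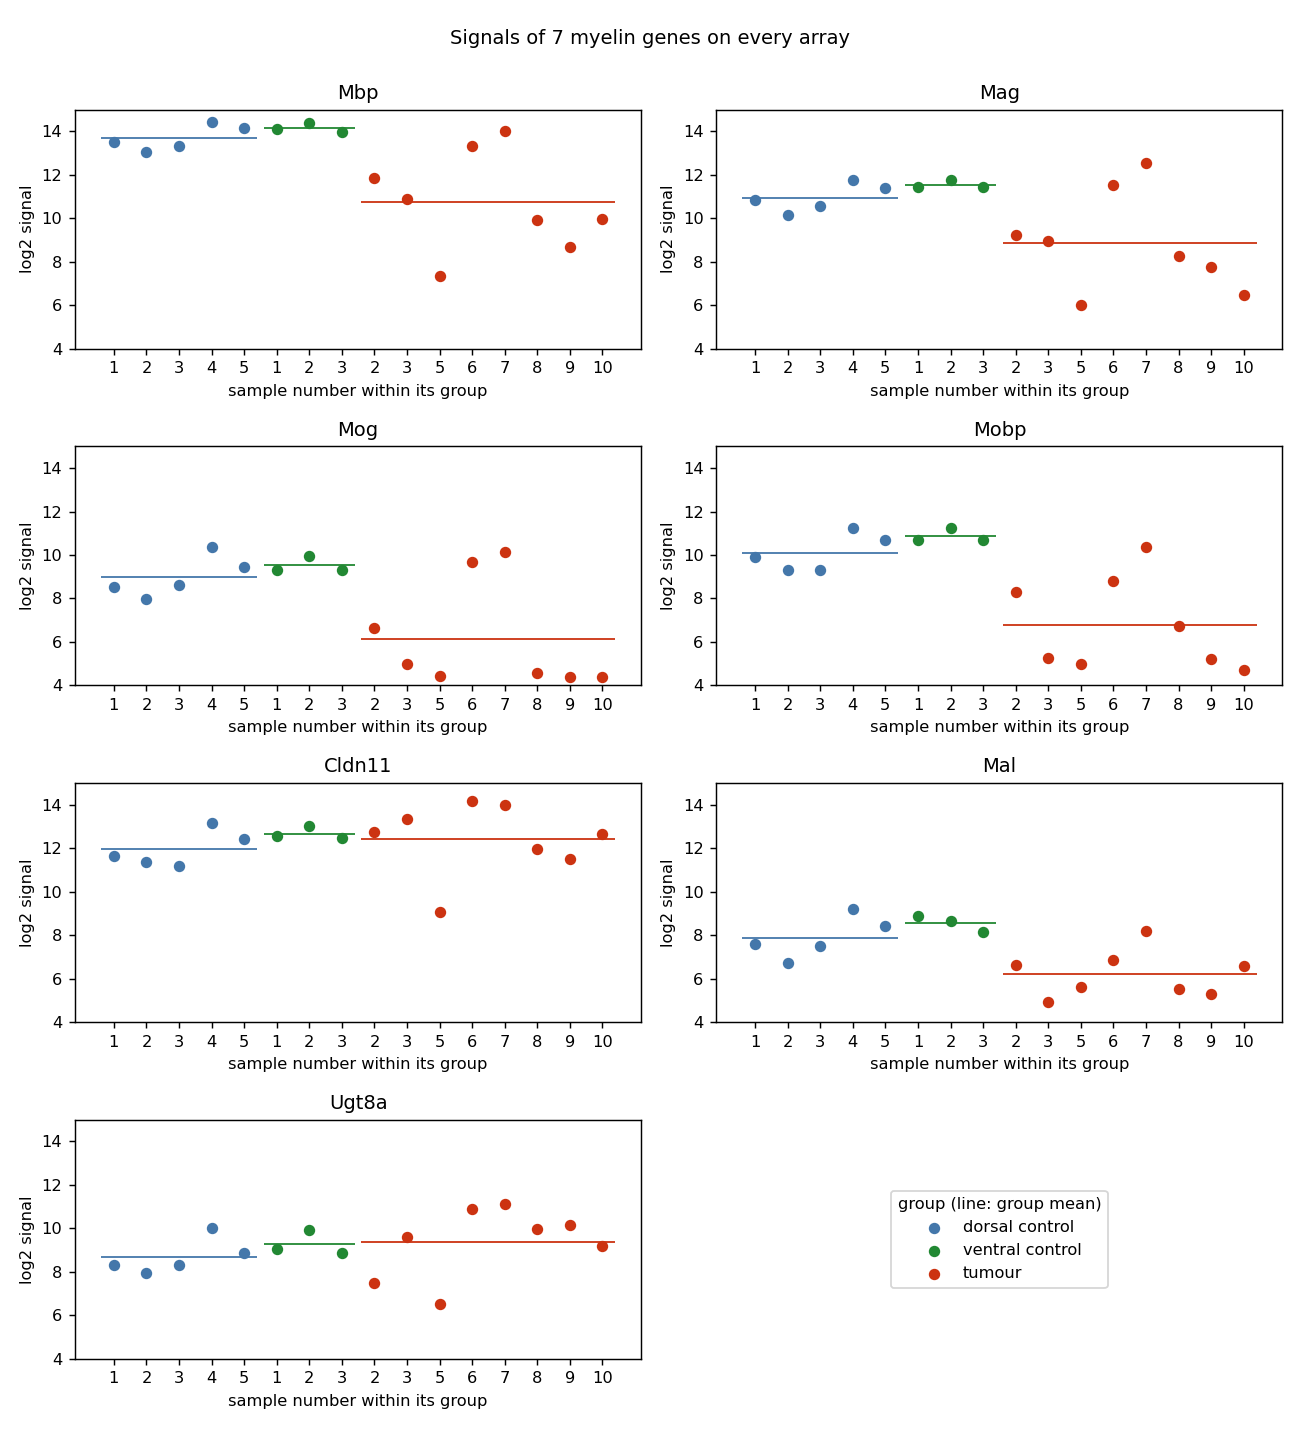
Log2 signal of the 7 measured myelin genes on each of the 16 arrays, 1 panel per gene, with the sample number within its group on the horizontal axis and horizontal lines at the group means. Tumours 6 and 7 lie near the controls for Mbp, Mag and Mog, while the other 6 tumours lie below every control for these genes.

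Mbp encodes myelin basic protein, which zips the cytoplasmic faces of compact myelin together. Its brightest probe gave log2 signals of 13.51, 13.07, 13.35, 14.43 and 14.16 in dorsal controls 1 to 5 and of 14.11, 14.38 and 13.96 in ventral controls 1 to 3. The tumours ranged from 7.33 in tumour 5 through a median of 10.43 to 14.02 in tumour 7. Tumours 6 and 7, at 13.34 and 14.02, lay within the range of the controls, and the other 6 lay below every control. The tumour mean was 3.18 ± 0.78 lower on the log2 scale than the mean of both control regions (SE of the limma contrast, n = 8 against 5 and 3), which is 9.07-fold (limma, adjusted p = 0.00276).

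Mobp encodes another small basic protein of compact myelin. Its log2 signals were 9.90, 9.31, 9.29, 11.23 and 10.69 in the dorsal and 10.70, 11.25 and 10.67 in the ventral controls. In the tumours they ranged from 4.73 in tumour 10 through a median of 6.01 to 10.35 in tumour 7. Tumour 7 alone lay within the range of the controls, and tumour 6, at 8.81, joined the 6 others below it. The tumour mean fell by 3.68 ± 0.75, or 12.8-fold (limma, adjusted p = 0.000624).

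Mog encodes an adhesion protein of the outermost myelin membrane. The dorsal controls had log2 signals of 8.53, 7.97, 8.60, 10.39 and 9.43, and the ventral controls had 9.29, 9.95 and 9.32. The tumours ranged from 4.38 in tumour 9 through a median of 4.77 to 10.15 in tumour 7. Tumours 6 and 7 lay among the controls, tumour 2 stood between at 6.66, and in tumours 5, 8, 9 and 10 the probe was not detected above background, so that 4 of 8 tumours gave a measured level. The difference of the means was -3.10 ± 0.86 (limma, adjusted p = 0.00634), and since those 4 tumours entered at background signal their true fall may be larger.

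Mag encodes a sialic acid-binding adhesion protein of the membrane next to the axon. It read 10.83, 10.14, 10.56, 11.76 and 11.39 in the dorsal and 11.43, 11.76 and 11.43 in the ventral controls, in log2 signal. The tumours ranged from 6.00 in tumour 5 through a median of 8.61 to 12.54 in tumour 7. The tumours spread to both sides of the controls, with tumour 7 above every control, tumour 6 among them at 11.52 and the other 6 below every one. The mean difference was -2.39 ± 0.79, a 5.25-fold fall (limma, adjusted p = 0.0175).

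Mal encodes a raft-associated membrane protein involved in sorting myelin components. Its log2 signals were 7.58, 6.74, 7.48, 9.20 and 8.40 in the dorsal and 8.87, 8.65 and 8.14 in the ventral controls. The tumours ranged from 4.90 in tumour 3 through a median of 6.10 to 8.19 in tumour 7. Tumour 7 lay among the controls, tumour 6, at 6.87, just above the lowest of them, and the other 6 below every control. The fall was 2.02 ± 0.45, or 4.05-fold (limma, adjusted p = 0.00121).

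Cldn11 encodes the claudin that forms the tight junction strands of central myelin. The controls gave log2 signals of 11.66, 11.38, 11.17, 13.18 and 12.42 in dorsal and 12.56, 13.02 and 12.45 in ventral brain. The tumours ranged from 9.05 in tumour 5 through a median of 12.69 to 14.17 in tumour 6. Tumours 3, 6 and 7 lay above every control and tumour 5 below every control. The mean difference was 0.11 ± 0.60, with a 95% confidence interval from -1.16 to 1.39 (limma, adjusted p = 0.890), an interval that still holds a change of more than 2-fold either way.

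Ugt8a encodes the enzyme that adds galactose to ceramide to make galactosylceramide. Its log2 signals were 8.31, 7.96, 8.30, 10.03 and 8.86 in the dorsal and 9.06, 9.92 and 8.89 in the ventral controls. The tumours ranged from 6.51 in tumour 5 through a median of 9.79 to 11.14 in tumour 7. Tumours 6, 7 and 9 lay above every control, and tumours 2 and 5 lay below every control. The mean difference was 0.38 ± 0.59 with a 95% confidence interval from -0.88 to 1.64 (limma, adjusted p = 0.615).

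Against the mean of both control regions, then, 5 of the 7 measured genes were lower and 0 were higher at an adjusted p under 0.05, with a median log2 change of -2.39. Over all 11755 genes tested, 26.7% were lower and 27.3% higher, and the median change was 0.01. Against dorsal controls alone 4 of 7 were lower, and 0 higher, where 24.2% of all genes were lower and 26.0% higher. Mag, at -2.09 ± 0.88, narrowly missed the threshold there (limma, adjusted p = 0.0599). Against ventral controls alone 4 of 7 were lower, and 0 higher, beside 21.1% and 19.6% of all genes, and Mag again missed it at -2.69 ± 1.05 (limma, adjusted p = 0.0504). Mag passed against dorsal controls without tumour 7 (limma, adjusted p = 0.00712) or without tumour 6 (0.0223), and against ventral controls likewise (0.00696 and 0.0207). The count against ventral controls rested on few arrays, and it was 2 of 7 without ventral control 1 and 2 of 7 without ventral control 2. Mog no longer passed against ventral controls without ventral control 3 (limma, adjusted p = 0.0717), nor against dorsal controls without dorsal control 4 (0.0650).

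The dorsal controls were themselves uneven. Over the 8 measured genes of a list of 10 striatal neuron genes, the mean log2 signal reached 10.62 in the fourth and 11.24 in the fifth dorsal control, against 6.70 to 6.83 in the other 3 dorsal controls and 7.79 to 7.82 in the ventral controls. For all 7 myelin genes dorsal control 4 was the brightest and dorsal control 5 the next brightest of the dorsal controls. With these 2 arrays left out, a choice made after the data were seen, 1 of 7 genes was lower against dorsal controls, Mobp. Mbp (limma, adjusted p = 0.0774), Mal (0.138) and Mog (0.153) did not pass, and Mag did not pass against the mean of both regions (0.0533). Ventral brain gave higher mean signals than dorsal brain for all 7 genes, by 0.45 to 0.79 on the log2 scale, yet 0 of 7 passed the test of ventral against dorsal (limma, lowest adjusted p = 0.670), where 9.45% of all genes differed either way. None of the 7 reached an unadjusted p under 0.05 in that comparison. The fit shares 1 estimate of spread over all 3 groups, so the wide spread of the tumours enters this comparison of controls. For Mbp its SE was 1.13, beside SDs of 0.57 in dorsal controls, 0.21 in ventral controls and 2.27 in tumours. The test therefore cannot decide whether the 2 regions differ in these genes.

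The arrays lay on 3 chips, each of which held tumours and controls. Within chip 1, with tumours 8, 9 and 10, the tumour mean minus the mean of both regions was -4.30 for Mbp, -4.47 for Mog and -4.74 for Mobp. Within chip 3, with tumours 5, 6 and 7, it was -2.60, -1.45 and -2.78. Mag gave -3.63 and -1.47 and Mal -2.43 and -1.51 on these chips, so that all 5 genes were lower on both. Chip 2 held no ventral control, and against its 3 dorsal controls tumours 2 and 3 differed by -1.72 for Mag to -3.17 for Mog. Cldn11 was at -0.07 and -0.17 on chips 1 and 3 and at 1.14 against dorsal controls on chip 2, and Ugt8a was at 1.10, 0.37 and -0.22. The lowest tumour for Mbp, Mag, Cldn11 and Ugt8a, tumour 5, shared chip 3 with the high tumours 6 and 7.

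**Figure D2:**
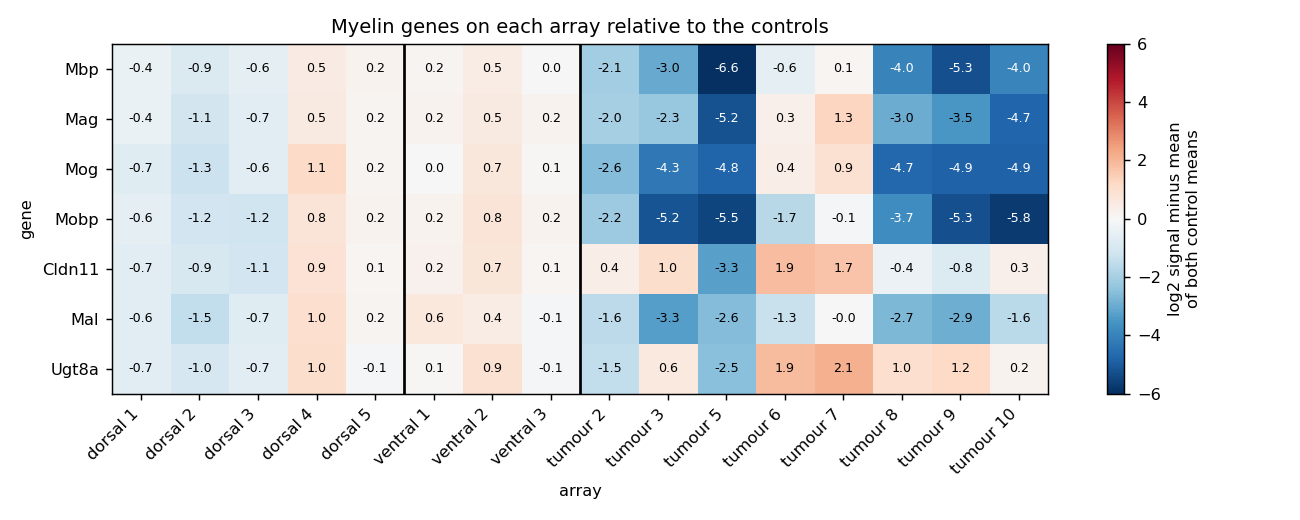
Log2 signal of each myelin gene on each array minus the mean of the dorsal and ventral control means, with blue below and red above the controls and vertical lines between groups. Tumour 5 is blue for all 7 genes, tumours 6 and 7 are pale or red for most, and the Cldn11 and Ugt8a rows are red in several tumours whose Mog and Mobp are deep blue.

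Tumours differed from one another in these genes far more than most genes did. The SD over the 8 tumours was 2.27 for Mbp, 2.27 for Mag, 2.44 for Mog and 2.11 for Mobp on the log2 scale. Only 0.145% of all genes tested had a larger SD among tumours than Mog, 0.196% than Mag, 0.204% than Mbp and 0.315% than Mobp, while the share was 1.21% for Cldn11, 1.40% for Ugt8a and 7.05% for Mal. The median SD of the 7 genes was 2.11 in tumours, against 0.44 over all genes. It was 0.83 against 0.22 in dorsal and 0.33 against 0.14 in ventral controls, so these genes were also more variable than most in normal brain. Tumours of both kinds, above and below every control, were found for 3 of the 7 genes, Mag, Cldn11 and Ugt8a, and for 22.1% of all genes. Between tumour 5 and tumour 7 the Mbp signal differed by 6.70 on the log2 scale, or 104-fold. The mean over the 7 genes was lowest in tumour 5, at 6.27, and highest in tumours 6 and 7, at 10.75 and 11.49, compared with 9.51 to 11.46 in dorsal and 10.69 to 11.28 in ventral controls. In bulk tissue a smaller number of oligodendrocytes and less myelin RNA in each of them cannot be told apart.

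The genes that fell tended to rank the tumours alike, Mal less closely than Mbp, Mag, Mog and Mobp. The Mog probe was not detected in tumours 5, 8, 9 and 10, so the order of these tumours for Mog rests on background. Mobp was close to background in tumours 3, 5, 9 and 10, at 4.73 to 5.28. Among all 21 pairs of the 7 genes, Pearson's r over the 8 tumours ranged from 0.32 to 0.94 with a median of 0.75, and Spearman's rho from 0.31 to 0.95 with a median of 0.69. By exact permutation tests, adjusted over the 21 pairs, 10 pairs passed for r and 8 for rho. Of the 10 pairs among Mbp, Mag, Mog, Mobp and Mal, 8 passed for r and 5 for rho. The share of all gene pairs that would pass was not computed, so these counts are not read as particular to the myelin genes. Tumours 6 and 7 stood apart from the other tumours for Mag and Mog, which by itself raises r. Mbp and Mag had r = 0.94 and rho = 0.93 (exact permutation, adjusted p = 0.00425 and 0.0156), and r was 0.86 without tumours 5 and 7, the 2 tumours farthest from the median of Mbp. Mbp and Cldn11 were as close, with r = 0.91 and rho = 0.95 (exact permutation, adjusted p = 0.00354 and 0.0120) and r = 0.90 without the same 2 tumours. Mog and Ugt8a had r = 0.51 and rho = 0.43 (exact permutation, adjusted p = 0.192 and 0.314), and r = -0.37 without tumours 6 and 7. With the 2 farthest tumours left out of each pair the median r fell to 0.46 over all pairs and 0.69 among the 5 genes, and the range was -0.37 to 0.92. Leaving out the farthest tumours narrows the range of a gene, which by itself lowers r. How much of the likeness rested on these tumours therefore cannot be told. Leaving out tumour 7 alone left 6 pairs that passed for r, in a test with fewer tumours.

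Within a single array the 5 genes changed by unequal amounts relative to Cldn11 and Ugt8a. For each pair the log2 signal of one gene minus that of the other was taken on each array, and this difference was compared between 8 tumours and 8 controls by an exact permutation test over 12870 regroupings, two-sided and adjusted over 21 pairs. The test was chosen after the data were seen. The difference itself compares 2 probes and has no meaning as a ratio of RNA levels, so that only its shift between groups is read. In all 13 pairs passed, among them 10 of the 10 that set one of the 5 genes against Cldn11 or Ugt8a, and 3 of the 10 among the 5 genes themselves. The 5 genes were set apart by the test of tumours against controls on the same arrays, so the 10 pairs give no independent support to it. The share of all gene pairs that would pass was not computed. With 26.7% of all genes lower and 27.3% higher, other pairs can shift likewise, so the count is not read as particular to these genes. Mobp minus Cldn11 was between -2.07 and -1.72 in the controls and between -8.08 and -3.66 in the tumours. All 8 tumours lay below every control, including tumours 6 and 7, in which Mog and the brightest Mbp probe lay in the range of normal brain. Relative to Cldn11, the tumours thus changed by -3.79 for Mobp, -3.33 for Mbp, -3.24 for Mog and -2.52 for Mag, each with 8 of 8 tumours below every control (exact permutation, p = 0.0001554, the smallest the test can give, adjusted p = 0.000466). Cldn11 minus Mal shifted by 2.14 (exact permutation, adjusted p = 0.00294), with 7 tumours above every control and tumour 5 below every control.

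Relative to Ugt8a the changes were -4.04 for Mobp, -3.58 for Mbp and -3.49 for Mog, again with 8 of 8 tumours below every control (exact permutation, adjusted p = 0.000466). Mag changed by -2.77 with 7 of 8 tumours below (0.000816, exact permutation), and Mal by -2.39 with 6 of 8 below (0.00381, exact permutation). Cldn11 and Ugt8a did not pass against each other, with a change of -0.25 (exact permutation, adjusted p = 0.612), although their difference ran from 1.34 to 5.24 in the tumours against 2.87 to 3.56 in the controls. Among the 5 genes, Mobp fell more than Mag, by 1.27 (exact permutation, adjusted p = 0.00254), and more than Mal, by 1.65 (0.00326, exact permutation). Mal, at 7.88 in dorsal and 8.55 in ventral controls, had less room above background than Mobp, at 10.08 and 10.87. The brightest Mbp probe fell more than Mag, by 0.81 (0.0208, exact permutation). Probes ILMN_1227299, ILMN_3011353 and ILMN_2639865 of Mbp, at -1.85, -1.30 and -0.72, fell less than Mag, at -2.39, and ILMN_3081854, at -3.17, fell more. No relation between the upstream motifs and these changes was tested.

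**Figure D3:**
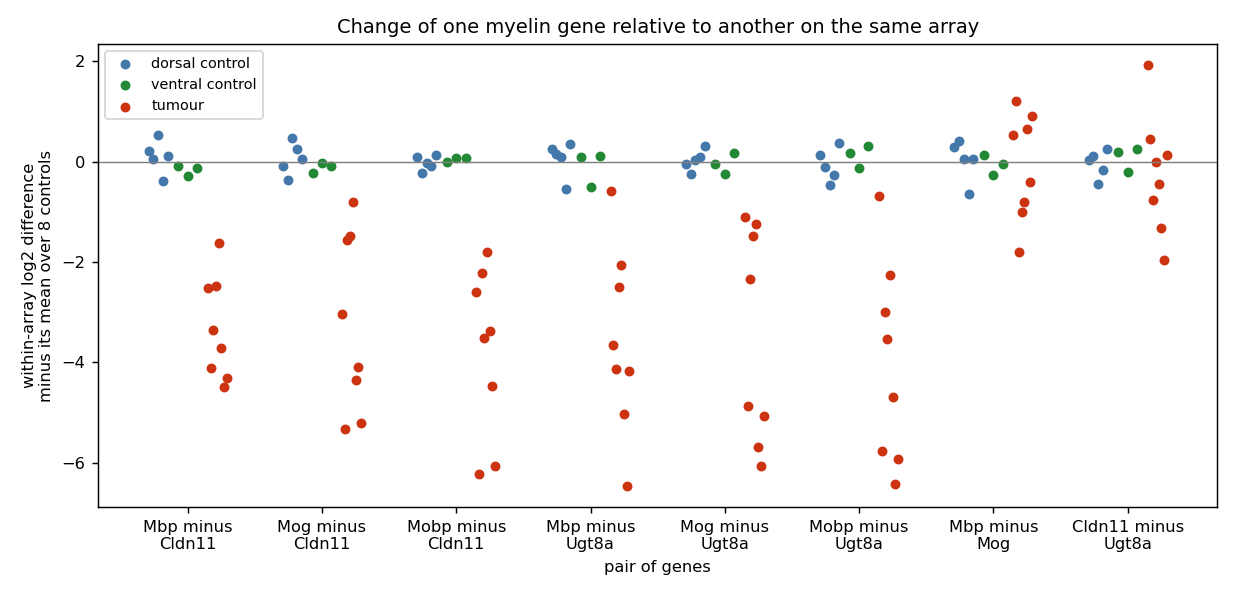
Within-array log2 difference between pairs of myelin genes, centred on its mean over the 8 controls, for dorsal controls, ventral controls and tumours. For the 6 pairs of Mbp, Mog or Mobp with Cldn11 or Ugt8a, all 8 tumours lie below every control, while Mbp minus Mog and Cldn11 minus Ugt8a scatter to both sides.

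Different probes of one gene gave the same direction for Mog, Mobp and Mal. Over all probes, 11 of the 15 kept probes were lower against the mean of both regions, beside 25.0% of all 23131 probes. The second probes changed by -2.71 ± 0.77 for Mog, -3.17 ± 0.63 for Mobp and -1.93 ± 0.38 for Mal (limma, adjusted p = 0.00773, 0.000532 and 0.000468). The second Ugt8a probe was not detected on any control array and was detected in 5 of 8 tumours, namely 3, 6, 7, 8 and 9. Its test did not pass (limma, adjusted p = 0.0677). This probe was kept only through the tumours, so its upward direction was nearly fixed and adds nothing to the first Ugt8a probe. Against dorsal controls 9 of 15 probes were lower, beside 22.8% of all probes, and against ventral controls 10 were, beside 18.9%. The ventral count was 4 without any one of the ventral controls.

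The 5 Mbp probes did not behave alike. Probe ILMN_3081854 followed the brightest probe, with a change of -3.17 ± 0.83 (limma, adjusted p = 0.00472). Probe ILMN_1227299 fell by 1.85 ± 0.61 (limma, adjusted p = 0.0187), and probe ILMN_2639865, close to background in 6 tumours, gave -0.72 ± 0.40 and did not pass (0.153). Probe ILMN_3011353 gave a pattern of its own, at 9.07, 9.51, 9.12, 9.06 and 9.40 in dorsal and 8.85, 8.50 and 8.54 in ventral controls. Its tumours ranged from 6.03 in tumour 5 through a median of 7.79 to 8.33 in tumour 8, all below every control. Tumours 6 and 7, the highest for every other Mbp probe, were at 7.40 and 7.59 here, among the lowest. The fall was 1.30 ± 0.26 (limma, adjusted p = 0.000511), and all tumours were below every control for 10.1% of genes. Across the 8 controls this probe ran against the other Mbp probes, with r from -0.63 to -0.40, and across the tumours r was -0.10 to 0.31. The other 6 pairs of Mbp probes had r of 0.79 to 0.97 across tumours. Mbp has several transcripts, and which of them each probe reads is not given in the files used here.

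**Figure D4:**
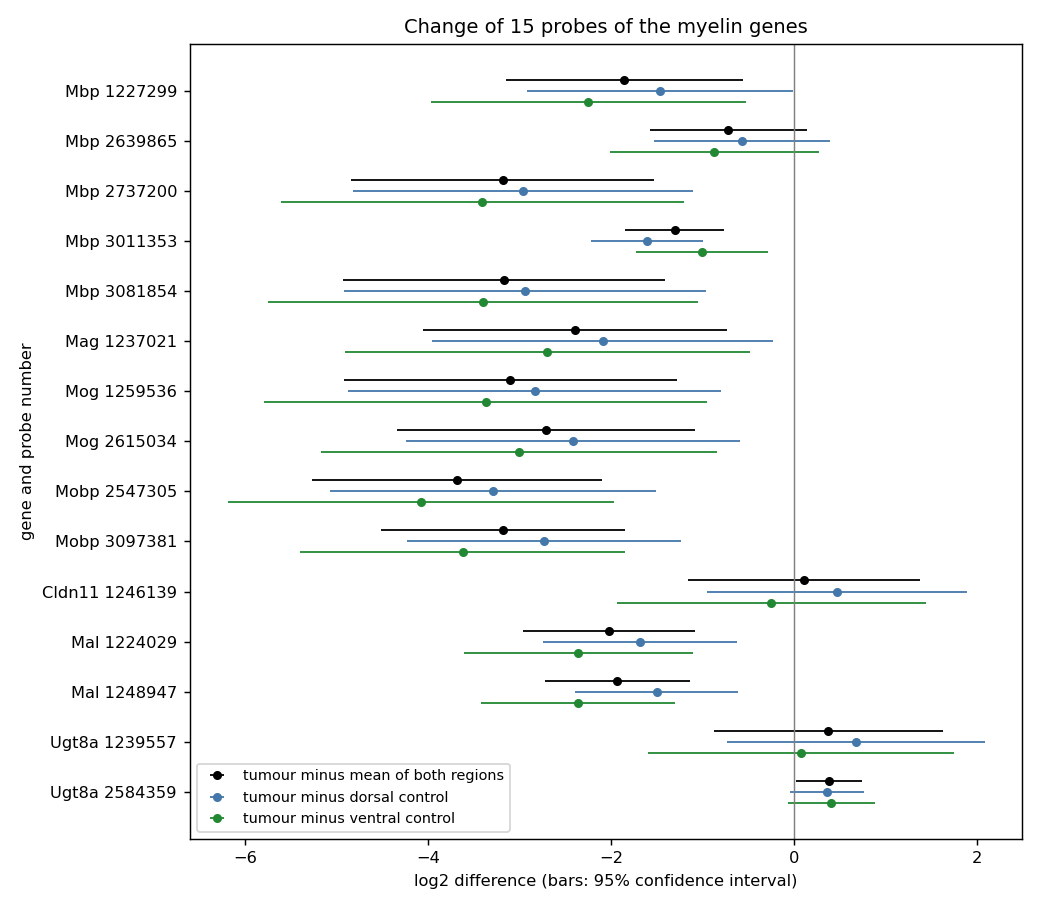
Log2 difference between tumours and controls for each of the 15 kept probes, with bars for the 95% confidence interval of the limma contrast and colours for the comparison. The Mog, Mobp and Mal probes lie wholly below 0 in all 3 comparisons, the Cldn11 probe straddles it, and the 5 Mbp probes run from -0.72 to -3.18 against the mean of both regions.

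Other genes of the oligodendrocyte lineage, from lists chosen with earlier results of these data known, are set beside the 26.7% of all genes that were lower and the 27.3% that were higher. Of 13 tested genes for other proteins of compact and paranodal myelin, 3 were lower and 2 higher, with a median of -0.12, no more than those shares. Cd9, a tetraspanin also made by many other cells, rose by 3.29 and Mpzl1, a relative of the peripheral myelin protein P0 that many tissues express, by 3.00. Cntn2, a contactin of the juxtaparanode, fell by 2.81, Opalin, an oligodendrocyte membrane glycoprotein, by 2.65 and the tetraspanin Tspan2 by 1.61. Cnp, the nucleotide phosphodiesterase of uncompacted myelin, gave 0.00 ± 0.56 and spread, like Cldn11, from 8.27 in tumour 8 to 12.30 in tumour 7. Of 21 other genes of mature oligodendrocytes 11 were lower and 2 higher, with a median of -0.85. Tppp, a tubulin polymerisation-promoting protein, fell by 3.42, Dnajb2 by 2.25 and Hapln2, a link protein of the node matrix, by 2.17, and Gsn, the actin-severing gelsolin, rose by 1.45. Of 13 genes of myelin lipid synthesis 6 were higher and 3 lower with a median of 0.35. Elovl1, which lengthens very long fatty acids, rose by 1.48, Cers2, a ceramide synthase for such chains, rose by 1.16, and Smpd3, a neutral sphingomyelinase, fell by 1.61. Cnp and, below, Myrf, Gpr17 and Enpp6 are named after their values were seen.

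Counts for the transcription factors of the lineage, not all of them early, and for its earlier stages held more genes that were higher, beside 27.3% of all genes. Of 11 transcription factors of the lineage 7 were higher and 1 lower, with Olig2 up by 3.28, Sox10 by 2.42 and Nkx2-2 by 2.25 and Nkx6-2 down by 2.57. Myrf, a regulator of myelin genes, gave -0.02 ± 0.14 at a signal close to background. Of 10 genes of newly formed oligodendrocytes 7 were higher and 0 lower, with a median of 1.14, led by Bmp4 with 2.54, Lims2 with 2.25 and the calcium channel gene Itpr2 with 2.20. Of 14 genes of progenitors 9 were higher and 0 lower, with a median of 1.57, led by Lhfpl3 with 3.37, the matrilin Matn4 with 2.95 and the growth factor receptor Pdgfra with 2.90. Gpr17, a receptor of the stage before myelination, did not pass (limma, adjusted p = 0.228), at 12.18 and 12.76 in tumours 6 and 7, 11.75 in tumour 10 and 6.69 in tumour 8, against 7.78 to 9.06 in the controls. Tumour 10 thus had a high Gpr17 signal beside Mog, Mobp and Mag signals that were among the lowest measured. Enpp6, a marker of newly formed oligodendrocytes, did not pass either, at 0.79 ± 1.06 (limma, adjusted p = 0.552). It was at 10.81 and 12.45 in tumours 6 and 7, 9.52 in tumour 3 and 4.41 in tumour 5, against 5.20 to 8.27 in the controls.

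**Figure D5:**
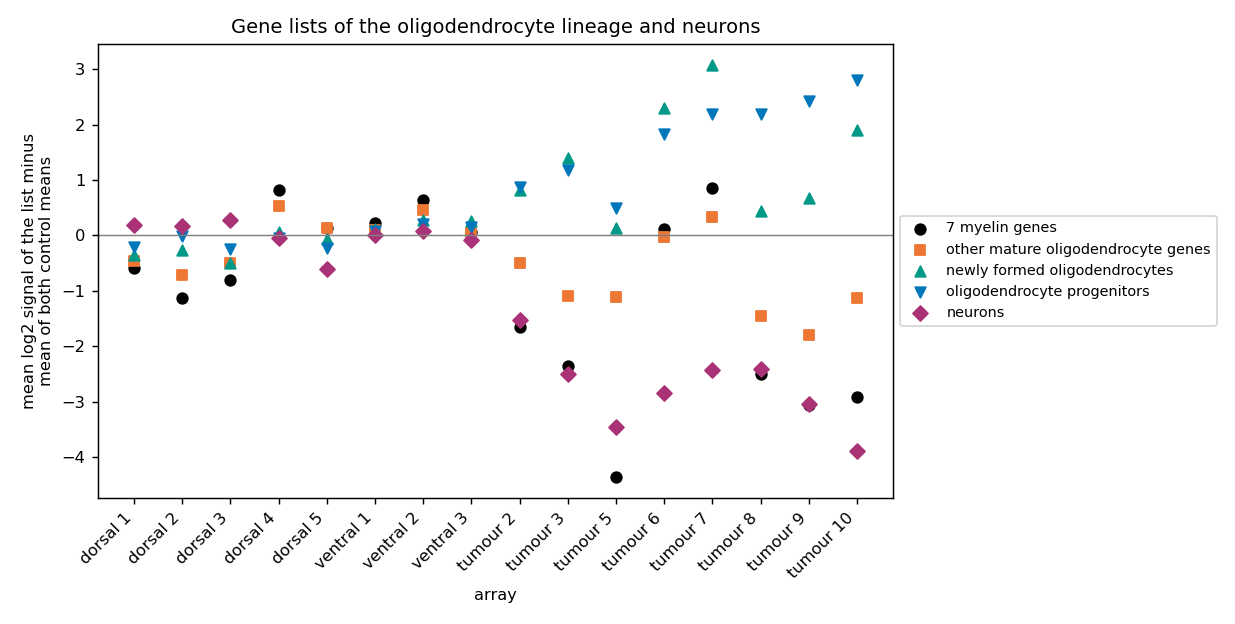
Mean log2 signal of 5 gene lists on each array minus the mean of both control means. The mean of the 7 myelin genes falls below the controls in tumours 2, 3, 5, 8, 9 and 10 but not in tumours 6 and 7, the neuron list is lower in all 8 tumours, and the progenitor list is higher in all 8.

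Markers of some other cells moved with the groups, again beside 26.7% lower and 27.3% higher over all genes. Of 12 tested neuron genes 10 were lower and 0 higher, with a median of -3.43, led by Vsnl1 with -4.48, Stmn2 with -4.04 and Thy1 with -3.91. Their mean log2 signal was 7.68 to 10.04 in the tumours against 10.96 to 11.84 in dorsal and 11.48 to 11.64 in ventral controls. In tumours 6 and 7 the signals of the brightest Mbp probe, Mag and Mog were those of normal brain or above. The neuron mean in these tumours was 8.72 and 9.14, below every control. Of 10 genes of microglia and macrophages 7 were higher, led by Gpnmb with 5.00, Lyz2 with 4.83 and Lgals3 with 4.61, with a mean of 7.55 to 10.89 in tumours against 6.94 to 7.40 in the controls, and of 12 astrocyte genes 7 were lower and 1 higher. Ntsr2 at -3.04, Gja1 at -2.33 and Gjb6 at -2.20 led the astrocyte genes that fell, and Gfap rose by 1.87. Of 10 endothelial genes 1 was higher, Vwf with 1.37, and 1 lower, Flt1 with -1.09, fewer than over all genes. The part of these cells in the fall of the myelin genes was not tested. Genes of myelinating Schwann cells, which make the myelin of peripheral nerve, gave 2 higher, Dhh and Egr2, and 2 lower, Drp2 and Ncmap, of 5 tested, but 1 higher and 1 lower against dorsal controls. Egr2 had mean log2 signals of 8.24 in dorsal, 5.18 in ventral controls and 8.02 in tumours. Dhh was detected on 0 of 8 control and 7 of 8 tumour arrays, and the marker Cldn19 was detected on 0 of 16 arrays. Dhh was thus kept only through the tumours, so its upward direction was nearly fixed. The same held for Mpzl1, detected in 0 dorsal controls and 1 ventral control. It also held for Zfp488, a lineage transcription factor among those higher, detected in 0 dorsal controls, 0 ventral controls and 4 tumours. Over the 131 tested genes of these 11 lists, 38 were lower and 44 higher in the tumours against the mean of both regions, beside 26.7% and 27.3% of all genes. Against dorsal controls 32 were lower and 43 higher, beside 24.2% and 26.0% of all genes. Against ventral controls 34 were lower and 34 higher, beside 21.1% and 19.6%. Between the control regions 1 was lower and 4 were higher in ventral brain, where 9.45% of all genes differed.

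The genes outside the list whose signal followed the 7 myelin genes most closely over the 8 tumours were ranked by the mean of their 7 Pearson correlations, as a description. They were Arhgap23 at 0.86, Tubb4a at 0.85, Tppp, Gng8, Prickle1 and Fads6 at 0.84, and Pex5l, Sema4f, Rab40b and Igf2 at 0.83. Rab40b lay close to the signal of undetected probes in all 8 tumours, with its lowest at 4.32, so its place in this order rests on background. Gng8, at 4.40 to 5.52 in the tumours, and Pex5l, at 4.63 to 5.88, were also low and reached that signal in their lowest tumour. Tubb4a encodes a beta tubulin abundant in brain, and it ran from 7.18 to 12.17 in the tumours and fell by 2.13 ± 0.62 (limma, adjusted p = 0.00828). Igf2, a growth factor, ran from 8.53 to 14.61 with tumours 6 and 7 at 14.51 and 14.61, and its difference from the controls, 1.35 ± 0.77, did not pass (limma, adjusted p = 0.149). Over the 8 controls the same mean correlation was 0.17 for Igf2, 0.35 for Tubb4a and -0.35 for Tppp, and 0.82 for Gng8 and 0.79 for Fads6.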

How the data were processed

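The deposited intensities are, per the file headers, bead averages for 45281 probes and 16 arrays without normalization or background subtraction. A detection p-value for every probe and array was deposited beside them. The authors' own log2 values, deposited for 38563 probes, were made by a method the sources do not state. Array by array they matched the values computed here with r of at least 0.999997 across probes, and differed by at most 0.06. They served as an alternative, but values this close make a refit on them hardly a separate check. The labels' protocols state flash freezing, a Qiagen kit for lipid tissue and biotin labelling.

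Intensities were background-corrected with limma 3.58.1 (R 4.3.3) by the normal-exponential model based on detection p-values, with an offset of 16, then quantile normalized and taken to log2. Probes detected at p under 0.05 on at least 3 arrays were kept, and per gene the probe with the highest mean was used, which gave 11755 genes. Kept probes that lacked 1 clear gene name, 4989 in all, entered only the probe fit. A limma model of 3 group means over all 16 arrays gave 4 contrasts, with Benjamini-Hochberg adjustment over all genes or all kept probes at 0.05. Between 38.8% and 45.1% of probes were detected on an array, with median intensities of 125.7 to 141.7, and precision is limited by how many arrays there are. The procedures were tested on simulated data. For the limma fit, each simulated gene had the same spread in every group. The 7 measured myelin genes had a median SD of 2.11 in tumours, 0.83 in dorsal and 0.33 in ventral controls. The simulation did not cover such unequal spread. The members and all gene lists were chosen with earlier results of these data known. Every member and probe is named, and for the other lists the 3 genes with the largest change that passed and 1 in the other direction. Where 5 or fewer passed, others were named after their values were seen.

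Replicate numbers recur across groups. Deviations from the group means of same-numbered arrays correlated at -0.06 to 0.14 over 8 pairs, against -0.13 to 0.14 over 71 other pairs, so the numbers were not taken as pairs. Alternatives covered background, scaling, offset, detection filter, choice of probe, the authors' table, array weights, variance prior, chip, the weight of each control region and omission of single arrays. Gene positions and upstream sequences came from RefSeq tables on GRCm38.p6.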

Additional observations from a re-analysis of the deposited data

Results flagged for a closer look

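Of 30 groups of probe values tested for a single sample far from the others, 1 met the criterion, where chance alone gives about 1 in 20. Mbp probe ILMN_3011353 in tumour 5 gave a log2 signal of 6.03, and the nearest other tumour was at 7.40, a gap of 0.593 of the range over the 8 tumours. Tumour 5 was also the lowest tumour for the brightest Mbp probe and for Mag, Cldn11 and Ugt8a. It was detected on this probe like the other 7 tumours.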

How the results depend on the processing

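The falls of Mbp, Mog, Mobp and Mal against the mean of both regions kept their direction and passed in every refit, with ranges of -3.65 to -2.04, -3.77 to -1.65, -4.19 to -2.51 and -2.36 to -1.10. Values within single chips carry no test. Mag ranged from -2.92 to -1.52 and missed the threshold with array weights (limma, adjusted p = 0.0535) and without dorsal controls 4 and 5 (0.0533). Cldn11 and Ugt8a passed under none, and their direction was not stable. With each array left out in turn Cldn11 ran from -0.14 to 0.60 against the mean of both regions and from -0.50 to 0.24 against ventral controls, where array weights gave 0.27, and Ugt8a ran from -0.17 to 0.49 against ventral controls. Without background correction the median SD among tumours was 1.38 in place of 2.11.

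Against ventral controls, leaving out single arrays gave 2 to 5 genes and 4 to 12 probes, and dropping the detection filter gave 5 probes. Without dorsal controls 4 and 5, 1 gene and 1 probe were lower against dorsal controls, and 20 genes of the other lists in place of 32. Correlated pairs numbered 6 to 13 with single tumours left out. For the other lists in ventral against dorsal brain, the genes lower were 2 without background correction and with the offset of 50, 7 with array weights, 4 with the replicate block, 0 with chip as a block and 0 without dorsal controls 4 and 5, and 1 to 2 with single arrays left out. The genes higher were 2 with no detection filter, 29 with array weights, 2 with chip as a block, 7 without dorsal controls 4 and 5, and 2 to 7 with single arrays left out. With array weights 1 myelin probe was lower in ventral brain. The cause of these shifts was not tested.

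With the replicate block, Cldn11 was at -0.26 against the mean of both regions, and Ugt8a at -0.91 against that mean, -0.52 against dorsal and -1.31 against ventral controls, none of which passed. The genes of the other lists higher against ventral controls were 20 in place of 34. Mag passed against dorsal (limma, adjusted p = 0.0307) and ventral controls (0.0289) under this block, whose numbers did not pair the samples. The pairs with unequal change numbered 12 to 16 in place of 13 under the settings that alter the values. The Mog probe was not detected in 4 tumours and the Mobp probe in 1, and signal over background sets the lowest value they can show there.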
